A study of Mus musculus with 31 samples.

Results

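The T-cell receptor passes its signal on through a small set of proteins, and natural killer (NK) cells, the killer cells of the innate lymphocytes, transcribe the genes of several of them. Described here are 9 such genes, Cd3d, Cd3e, Cd3g, Cd247, Lat, Lck, Zap70, Lcp2 and Bcl11b, out of 27179 genes in the count table. They were chosen as a list of names and mapped to Entrez identifiers, and each had 1 entry in the table. They were chosen by their role and with some measured values known, namely the log2 changes of Bcl11b, Cd3d and Cd3g at 4 h in TGFBRII KO cells and Lat, Bcl11b and Cd3d at 24 h in WT cells. In these 2 comparisons, and in the 3 differences between responses that contain one of them, all 9 genes are therefore described without a test, 5 of 19 comparisons in all. Other comparisons share libraries with these 2, so their tests are not independent of the choice. All 9 passed the filter on low counts, which left 10275 genes to be tested.

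The RNA came from mouse NK cells, labelled as sorted, in 31 bulk libraries. TGFBRII KO cells lack the type II receptor of the cytokine TGF-β and had 3 libraries unstimulated, 3 after 4 h with TGFB1 and 3 after 24 h with TGFB1. CIS KO cells lack CIS, a suppressor of cytokine signalling, and had 4 libraries in each of these conditions. WT cells had 4 libraries unstimulated, 2 at 4 h and 4 at 24 h. The labels number the libraries as biological replicates and give no strain, age, sex or organ, and do not say how the knockouts were made. Cells kept for 24 h without TGFB1 were not analysed here, so a response is the difference from unstimulated cells, with any effect of time included.

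As background, CD3 delta, epsilon and gamma (Cd3d, Cd3e, Cd3g) are the chains that carry the signal of the T-cell receptor through motifs called ITAMs in their tails. The zeta chain (Cd247) carries more of these motifs and serves in NK cells as a partner of receptors such as NKp46. The kinase LCK phosphorylates ITAMs, the kinase ZAP-70 docks on them, and ZAP-70 then phosphorylates the adaptors LAT and SLP-76 (Lcp2), on which downstream enzymes gather. BCL11B is a zinc-finger transcription factor needed for commitment to the T lineage, and in T cells its loss brings out NK traits.

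Total counts per library ran from 701095 to 862331 in TGFBRII KO, from 392266 to 1403005 in CIS KO and from 297561 to 1135104 in WT. Cish ran from 18.0 to 55.3 CPM (counts per 1e6 counts of the TMM-scaled library) in CIS KO libraries and from 129 to 286 CPM in WT libraries. Tgfbr2 ran from 199 to 273 CPM in TGFBRII KO libraries and from 188 to 356 CPM in WT libraries, and counts over the whole gene do not check a deletion of part of it. Sex-linked transcripts differed with genotype. Xist ran from 12.5 to 130 CPM in TGFBRII KO, from 0 to 5.16 CPM in CIS KO and from 90.1 to 219 CPM in WT libraries, and the sum of the Y-linked Ddx3y, Eif2s3y, Uty and Kdm5d from 187 to 445, from 387 to 541 and from 1.37 to 124 CPM. Genotype and this difference cannot be told apart in any comparison of a knockout with WT, and their part in the responses was not tested.

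Of 10 defining NK-cell markers, 9 passed the filter, and the list summed to 2226 to 5224 CPM per library. Gzmb (763 CPM on average) and Klrb1c (726 CPM) were the largest parts of that sum. Itga2 did not pass, with at most 15 counts in any library and 5.05 CPM on average. Of 18 defining T-cell markers, Cd4, Cd8a and Cd8b1 had at most 2 counts in any library, Cd5 and Foxp3 at most 1, and 7 passed the filter. These were Trac, Trbc1, Trbc2, Trdc, Cd28, Ctla4 and Icos, and the whole list summed to 704 to 1127 CPM. Icos (291 CPM on average) and Cd28 (231 CPM) were the largest parts of that sum, and Trac averaged 28.8 CPM. The sum can move with Icos and Cd28 and does not measure T-cell content alone. Trbc1 and Trbc2 are near-identical copies, so the split between them is uncertain. B cell markers summed to at most 4.94 CPM, erythroid and platelet markers to at most 2.03 CPM, and myeloid markers to at most 21.8 CPM. Type 2 and 3 innate lymphoid markers summed to 8.13 to 92.7 CPM, and 1 of the 5, Il1rl1, passed the filter.

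The 3 CD3 genes lie side by side on mouse chromosome 9 (GRCm38.p6). Cd3g (Entrez 12502) is at 44969572 to 44980431 on the minus strand, Cd3d (Entrez 12500) at 44981769 to 44987052 on the plus strand, and Cd3e (Entrez 12501) at 44998735 to 45009663 on the minus strand. Cd3g and Cd3d start next to each other and are separated by 1337 bases, and 11682 bases separate Cd3d from Cd3e. Lat (Entrez 16797), which rose with TGFB1 in CIS KO and WT cells, is at chromosome 7, 126363827 to 126369705, minus strand. Bases upstream of these 4 genes are shown, outside the RefSeq span and every GENCODE exon of the gene itself. Exons of other genes were not excluded. They are shown because Cd3e stood at a level unlike that of Cd3d and Cd3g, and Lat moved unlike the CD3 genes. The windows are chr9:44980432-44980681 minus strand for Cd3g, chr9:44981536-44981768 plus strand for Cd3d, chr9:45009664-45009861 minus strand for Cd3e and chr7:126369706-126369818 minus strand for Lat. Capitals mark matches to any of 5 motifs, searched on both strands.
Cd3g: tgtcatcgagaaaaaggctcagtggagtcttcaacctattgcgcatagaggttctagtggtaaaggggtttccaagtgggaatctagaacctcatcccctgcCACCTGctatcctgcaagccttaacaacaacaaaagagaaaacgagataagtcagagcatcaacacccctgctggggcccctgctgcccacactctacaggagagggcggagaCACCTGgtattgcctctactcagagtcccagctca
Cd3d: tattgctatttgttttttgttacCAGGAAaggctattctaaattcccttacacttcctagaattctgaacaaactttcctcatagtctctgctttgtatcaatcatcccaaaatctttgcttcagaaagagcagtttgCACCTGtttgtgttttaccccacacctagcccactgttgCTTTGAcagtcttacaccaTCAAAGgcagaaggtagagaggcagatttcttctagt
Cd3e: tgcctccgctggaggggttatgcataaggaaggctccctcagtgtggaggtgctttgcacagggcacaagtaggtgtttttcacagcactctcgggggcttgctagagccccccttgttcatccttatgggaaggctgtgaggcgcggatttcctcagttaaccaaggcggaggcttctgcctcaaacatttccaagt
Lat: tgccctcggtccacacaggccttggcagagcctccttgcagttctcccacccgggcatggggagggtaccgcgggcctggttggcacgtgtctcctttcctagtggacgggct
The letters searched were CAGAC (a SMAD site), TGTGGT (RUNX), CAGGAA (ETS), CAGGTG (E-box) and CTTTGA (T-cell factor), with their reverse complements. The Cd3g stretch held 2 E-box matches. The Cd3d stretch held 1 ETS match, 1 E-box match and 2 T-cell factor matches, and the Lat and Cd3e stretches held none of the 5. The windows held 250 bases for Cd3g, 233 for Cd3d, 198 for Cd3e and 113 for Lat. Of 32851 RefSeq promoters searched over 250 bases, 42.2% held the SMAD letters, 14% the RUNX letters, 25.7% the ETS letters, 17.2% the E-box and 13.8% the T-cell factor letters. A match is a description of the letters and not a site.

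The other 5 genes lie apart. Cd247 (Entrez 12503) is at chromosome 1, 165779952 to 165871153, plus strand, and its 3′ end overlaps Pou2f1, which had 2600 counts over all libraries. The library kit keeps strand but the strand setting of the counting is not given in the sources used here, so reads in that overlap may be split or lost. Zap70 (Entrez 22637) is at chromosome 1, 36761798 to 36782821, plus strand, Lck (Entrez 16818) at chromosome 4, 129548344 to 129573641, minus strand, and Lcp2 (Entrez 16822) at chromosome 11, 34046928 to 34092281, plus strand. Bcl11b (Entrez 58208) is at chromosome 12, 107910403 to 108004145, minus strand.

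Per kilobase of exon, the kinases stood highest and Cd3e lowest. The level per kilobase, as the mean of the 9 group means, was 92.6 CPM per kb for Lck, 71.2 for Zap70, 54.4 for Lcp2, 46.7 for Cd3d, 44.0 for Cd3g, 41.1 for Lat, 24.5 for Cd247, 10.7 for Bcl11b and 1.89 for Cd3e. Among 9904 tested genes with a length, 93.9% stood below Lck and 5.35% below Cd3e. Cd3d, Cd3g and Lat were close to each other on this scale, and their order changed between groups. Cd3e, beside neighbours at 46.7 and 44.0 CPM per kb, had only 1 to 30 counts per library.

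**Figure D1:**
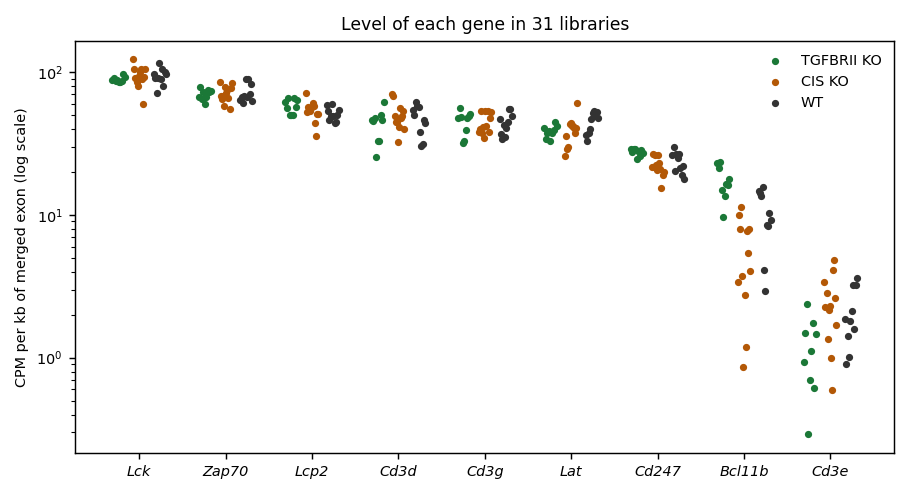
Level of each of the 9 genes in CPM per kilobase of exon (log axis), in every library (points, by genotype). Lck stands highest and Cd3e, with a mean of 1.89 CPM per kb, lowest.

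Bcl11b varied most between groups. Its highest group mean, in unstimulated TGFBRII KO cells, was 10.6 times its lowest, in CIS KO cells at 4 h. The ratio of the highest to the lowest group mean was 1.19 for Lck, 1.20 for Zap70, 1.37 for Lcp2, 1.46 for Cd3g, 1.51 for Cd247, 1.69 for Lat, 1.91 for Cd3d and 4.71 for the sparsely counted Cd3e.

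In TGFBRII KO cells, Bcl11b stood at 187, 172 and 189 CPM unstimulated, at 120.3, 78.2 and 109.7 CPM at 4 h and at 134, 131 and 145 CPM at 24 h. In CIS KO cells it stood at 27.6, 81.2, 64.1 and 92.5 CPM unstimulated, at 30.1, 7.03, 22.3 and 9.71 CPM at 4 h and at 62.8, 43.8, 64.5 and 32.7 CPM at 24 h. In WT cells it stood at 120.0, 115, 111 and 128 CPM unstimulated, at 33.4 and 23.6 CPM at 4 h and at 68.7, 67.7, 83.9 and 75.2 CPM at 24 h. In TGFBRII KO and in WT the 3 conditions did not overlap, with 4 h lowest and 24 h between. Of 10098 tested genes with a symbol, 17.9% in TGFBRII KO and 19.5% in WT lay wholly lower at 4 h than unstimulated. Wholly higher at 24 h than 4 h were 17.9% and 15.3%, and wholly lower at 24 h than unstimulated 10.1% and 12.1%. In CIS KO, 1 unstimulated library lay below the highest 4 h library and the unstimulated and 24 h libraries overlapped. The 4 h counts in CIS KO were only 24, 3, 11 and 4.

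**Figure D2:**
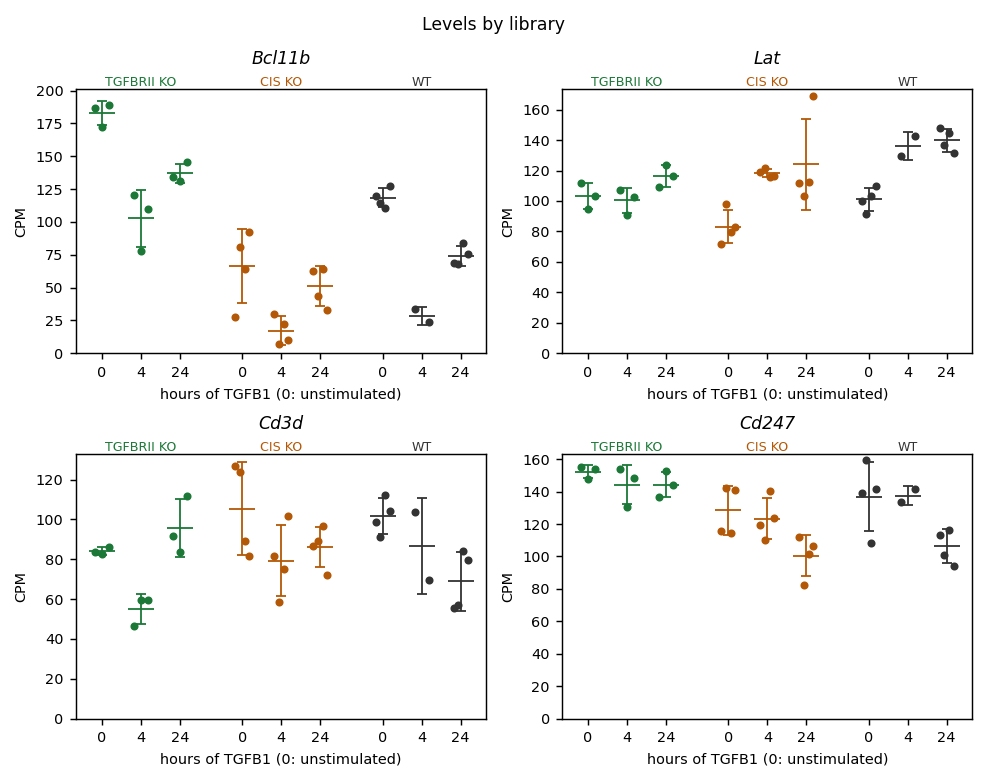
CPM of Bcl11b, Lat, Cd3d and Cd247 in every library (points) with the group mean, by genotype and condition. Bcl11b is low at 4 h in CIS KO and WT cells, where all libraries lie at or below 33.4 CPM.

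Bcl11b fell at 4 h of TGFB1 in CIS KO cells and in WT cells. The log2 change was -1.85 ± 0.30 (SE) in CIS KO (edgeR quasi-likelihood test, adjusted by Benjamini-Hochberg over every gene tested, adjusted p = 2.4e-05) and -2.16 ± 0.32 in WT (adjusted p = 8.9e-06). In TGFBRII KO the log2 difference at 4 h was -0.82 ± 0.18, given without a test. Of all genes tested, 8.02% were called at 4 h against unstimulated cells in TGFBRII KO, 13.8% in CIS KO and 11.8% in WT. In bulk RNA, fewer cells of a type and less RNA per cell cannot be told apart, here and below. The summed T-cell marker list ran from 989 to 1107 CPM at 4 h and from 896 to 993 CPM unstimulated in CIS KO, and from 921 to 1127 CPM at 4 h and from 831 to 885 CPM unstimulated in WT, and its part in these results was not tested. Of its 7 tested genes, 1 was called at 4 h in WT, Icos, higher by 0.50 ± 0.13 (edgeR, adjusted p = 0.0082).

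The log2 difference of Bcl11b at 4 h from unstimulated cells was smaller in TGFBRII KO than in WT by 1.34 ± 0.39, given without a test because it contains the TGFBRII KO response at 4 h. Without the deeper of the 2 WT libraries at 4 h it was 1.00. The other WT library at 4 h was the shallowest of the series, with 297561 counts. Between CIS KO and WT the responses differed by 0.31 ± 0.49, which did not pass the test, with a 95% interval of -0.66 to 1.28.

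From 4 h to 24 h Bcl11b rose again in CIS KO and WT. The log2 change from 4 h was 1.35 ± 0.30 in CIS KO (edgeR, adjusted p = 0.0024) and 1.48 ± 0.34 in WT (adjusted p = 0.0056). The WT comparison shares its 24 h libraries with the change known at the choice of genes. The WT call was lost without the deeper 4 h library (1.13, adjusted p = 0.24). In TGFBRII KO all 24 h libraries also lay above all 4 h libraries, as for 17.9% of 10098 tested genes. The log2 difference was 0.40 ± 0.19 with a 95% interval of 0.03 to 0.77, which did not pass the test (adjusted p = 0.21). At 24 h the log2 difference from unstimulated cells was -0.42 ± 0.17 in TGFBRII KO (adjusted p = 0.58) and -0.49 ± 0.22 in CIS KO (adjusted p = 0.10), and neither passed the test. The TGFBRII KO difference passed when only the groups compared were fitted (-0.41, adjusted p = 0.0091). The CIS KO difference passed with no filter on low counts (-0.48, adjusted p = 0.040) and without unstimulated CIS KO replicate 1 (-0.68, adjusted p = 0.018). In WT it was -0.68 ± 0.18, given without a test.

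Between genotypes, Bcl11b was higher in TGFBRII KO than in WT cells by 1.98 ± 0.34 at 4 h (edgeR, adjusted p = 5.7e-05) and by 0.90 ± 0.19 at 24 h (adjusted p = 0.00039) on the log2 scale. Changes of Bcl11b known at the choice of genes share the TGFBRII KO libraries at 4 h and the WT libraries at 24 h. Without the deeper WT library the 4 h difference was 1.63 (adjusted p = 0.051). In unstimulated cells it averaged 183 ± 9.23 CPM in TGFBRII KO cells (SD, 3 libraries) and 118 ± 7.28 CPM in WT cells (4 libraries), and the libraries did not overlap, as for 5.6% of 10098 tested genes in that direction. That difference, 0.63 ± 0.16, did not pass the test over all genes (adjusted p = 0.12), and it passed when only the 2 groups were fitted (adjusted p = 0.0028). It also passed with no filter on low counts (0.62, adjusted p = 0.00033) and with library total as a covariate (0.65, adjusted p = 0.023). In unstimulated CIS KO cells Bcl11b was lower than in WT, at 66.4 ± 28.4 CPM (n = 4), a log2 difference of -0.73 ± 0.19 (adjusted p = 0.026). That call was lost with library total as a covariate (-0.65, adjusted p = 0.16) and without CIS KO replicate 1 (-0.55, adjusted p = 0.11), CIS KO replicate 3 or WT replicate 3. The count of Bcl11b rose with the library total more steeply than the median gene of like count, with a slope within groups of 1.45 (log2 count per log2 total) against a median of 1.13 for those genes.

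Lat, the membrane adaptor, rose with TGFB1 in CIS KO and in WT cells. In CIS KO cells it stood at 71.7, 97.8, 79.7 and 82.8 CPM unstimulated, at 119, 122, 116 and 116 CPM at 4 h and at 112, 103, 112 and 169 CPM at 24 h. In WT cells it stood at 99.8, 91.3, 103 and 109.8 CPM unstimulated, at 129.8 and 143 CPM at 4 h and at 148, 136, 144 and 131 CPM at 24 h. In both genotypes all treated libraries lay above all unstimulated ones. Of 10098 tested genes with a symbol, 10.1% did so at 4 h and 10.4% at 24 h in CIS KO, and 16.7% and 9.22% in WT. In TGFBRII KO cells Lat ran from 94.6 to 112 CPM unstimulated, from 91.0 to 107 CPM at 4 h and from 109 to 124 CPM at 24 h, and both treated groups overlapped the unstimulated one.

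Lat rose at 4 h in CIS KO by 0.50 ± 0.14 on the log2 scale (edgeR, adjusted p = 0.010) and in WT by 0.46 ± 0.15 (adjusted p = 0.040), and at 24 h in CIS KO by 0.52 ± 0.13 (adjusted p = 0.0028). In WT at 24 h the log2 difference was 0.47 ± 0.11, given without a test. The WT call at 4 h was lost under 6 of the 7 other settings tried, with adjusted p-values of 0.065 to 0.12, and without any 1 of 5 of the 6 libraries in it (WT unstimulated replicates 1, 2 and 3, and either 4 h library, 0.054 to 0.41). In TGFBRII KO the log2 change was -0.03 ± 0.13 at 4 h, given without a test, and 0.18 ± 0.13 at 24 h (adjusted p = 0.89). The differences between the Lat responses of TGFBRII KO and WT were -0.49 ± 0.20 at 4 h and -0.29 ± 0.17 at 24 h, given without a test because each contains a comparison known at the choice of genes. At 4 h itself Lat was lower in TGFBRII KO than in WT (log2 -0.46 ± 0.16, adjusted p = 0.049), a call that was lost under 6 of the 7 other settings tried, and without any 1 of the 5 libraries in it (adjusted p of 0.053 to 0.44).

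Cd3d and Cd3g, the neighbouring chains, were low at 4 h in TGFBRII KO cells. Cd3d stood at 83.9, 82.4 and 86.1 CPM unstimulated, at 46.5, 59.7 and 59.4 CPM at 4 h and at 91.5, 83.7 and 112 CPM at 24 h. Cd3g stood at 155, 182 and 158 CPM unstimulated, at 105, 108 and 129 CPM at 4 h and at 157, 159.9 and 167 CPM at 24 h. For both genes the 4 h libraries lay below all unstimulated and all 24 h libraries. Of 10098 tested genes with a symbol, 17.9% lay wholly lower at 4 h than unstimulated, and 17.9% wholly higher at 24 h than 4 h. The log2 differences at 4 h from unstimulated cells were -0.61 ± 0.19 for Cd3d and -0.53 ± 0.15 for Cd3g, given without a test. From 4 h to 24 h, Cd3d rose by 0.80 ± 0.18 (edgeR, adjusted p = 0.0046) and Cd3g by 0.49 ± 0.15 (adjusted p = 0.031), a comparison that shares the 4 h libraries with that description. Without TGFBRII KO replicate 3 at 24 h both calls were lost (0.66 for Cd3d, adjusted p = 0.059, and 0.46 for Cd3g, adjusted p = 0.12). The Cd3g call was also lost with DESeq2, without replicate 1 or 2 at 4 h and without replicate 1 or 2 at 24 h (0.060 to 0.14). The summed T-cell marker list ran from 831 to 907 CPM at 4 h, from 825 to 875 CPM at 24 h and from 803 to 970 CPM in unstimulated TGFBRII KO cells, and its part was not tested.

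In WT cells Cd3d stood at 98.5, 91.3, 112 and 104 CPM unstimulated, at 104 and 69.5 CPM at 4 h and at 55.5, 57.0, 83.9 and 79.6 CPM at 24 h, where all libraries lay below the unstimulated ones, as for 12.1% of 10098 tested genes. The log2 difference at 24 h was -0.59 ± 0.15, given without a test. The summed T-cell marker list ran from 704 to 773 CPM at 24 h and from 831 to 885 CPM unstimulated in WT, with no overlap, and its part was not tested. Of its 7 tested genes, 1 was called at 24 h in WT, Cd28, lower (log2 -0.36 ± 0.12, edgeR, adjusted p = 0.023). Cd3d was higher in TGFBRII KO than in WT at 24 h by 0.49 ± 0.17 (edgeR, adjusted p = 0.029), a comparison that shares the WT 24 h libraries with the change known at the choice of genes. This call was lost with DESeq2 and without WT replicate 1 or 2 or TGFBRII KO replicate 1 or 3 at 24 h. The 24 h responses differed by 0.77 ± 0.23, given without a test because the WT response at 24 h is part of it. In CIS KO cells Cd3d averaged 105 ± 23.3, 79.3 ± 17.9 and 86.2 ± 10.2 CPM in unstimulated, 4 h and 24 h cells (SD, n = 4 each), and no change passed the test.

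Cd3g in WT cells averaged 131 ± 19.1 CPM unstimulated (n = 4), 123 ± 11.8 CPM at 4 h (n = 2) and 166 ± 16.6 CPM at 24 h (n = 4), where the log2 difference from unstimulated cells was 0.36 ± 0.13, given without a test. In CIS KO cells it averaged 138 ± 24.7, 139 ± 25.9 and 156 ± 23.1 CPM over the same order of conditions (n = 4 each), and no change passed the test. Cd3e averaged from 2.87 ± 1.69 CPM in TGFBRII KO cells at 4 h to 13.5 ± 5.76 CPM in CIS KO cells at 24 h, and it passed in no tested comparison in the fit described. From 4 h to 24 h in CIS KO its log2 difference of 1.14 ± 0.43 (edgeR, adjusted p = 0.066) passed with library size alone (1.25, adjusted p = 0.044) and without replicate 4 at 24 h (1.31, adjusted p = 0.029). Between TGFBRII KO and WT at 24 h its difference of -1.13 ± 0.46 (adjusted p = 0.081) passed without WT replicate 2 (-1.38, adjusted p = 0.035). Its log2 difference was -1.14 ± 0.61 at 4 h in TGFBRII KO and 1.09 ± 0.42 at 24 h in WT, both given without a test. Over the 31 libraries Cd3d and Cd3g, whose start sites lie next to each other, correlated with r = 0.09 on the log2 CPM scale, a description of libraries that also differ in depth.

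**Figure D3:**
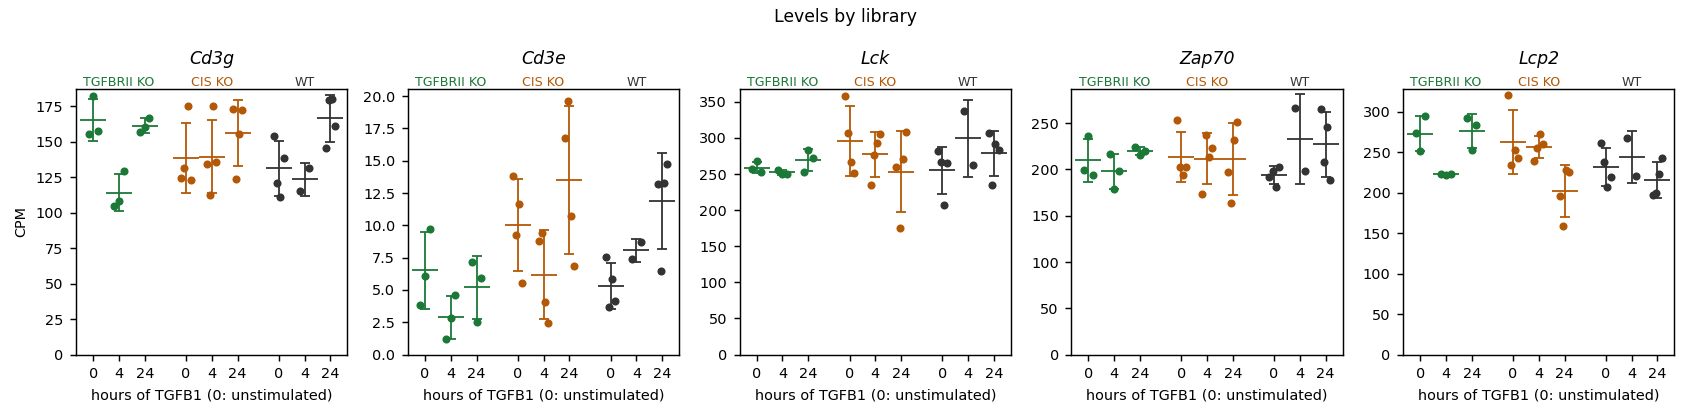
CPM of Cd3g, Cd3e, Lck, Zap70 and Lcp2 in every library (points) with the group mean, by genotype and condition. Lck and Zap70 group means span 1.19-fold and 1.20-fold, and Cd3g is low at 4 h in TGFBRII KO cells.

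Cd247, the zeta chain, was lower at 24 h of TGFB1 in CIS KO cells. It stood at 112, 82.5, 101 and 107 CPM there, and at 116, 142, 115 and 141 CPM in unstimulated CIS KO cells, so that all 24 h libraries lay below, as for 10.6% of 10098 tested genes. The log2 change was -0.41 ± 0.12 (edgeR, adjusted p = 0.015). That call was lost with DESeq2 (-0.40, adjusted p = 0.063) and when only the groups compared were fitted (adjusted p = 0.068). The summed NK marker list ran from 2226 to 3359 CPM at 24 h and from 3462 to 5224 CPM unstimulated in CIS KO, with no overlap, and 7 of its 9 tested genes were called lower (median log2 change -0.49). The summed T-cell marker list ran from 737 to 828 CPM at 24 h and from 896 to 993 CPM unstimulated, also with no overlap. The part of either list in the falls of Cd247 and Lcp2 was not tested. In WT cells it stood at 114, 101, 116 and 94.4 CPM at 24 h and at 139, 159, 108 and 141 CPM unstimulated, a log2 difference of -0.35 ± 0.11, given without a test, and 1 unstimulated library lay among the 24 h ones. In TGFBRII KO cells it averaged 152 ± 3.87, 144 ± 12 and 144 ± 7.93 CPM over unstimulated, 4 h and 24 h cells (n = 3 each). At 24 h Cd247 was higher in TGFBRII KO than in WT by 0.44 ± 0.12 (adjusted p = 0.0064).

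Lcp2, the adaptor SLP-76, also fell at 24 h in CIS KO cells. It stood at 196, 159, 227 and 226 CPM at 24 h and at 320.0, 234, 253 and 243 CPM unstimulated, with no overlap (as for 10.6% of 10098 tested genes), a log2 change of -0.39 ± 0.12 (edgeR, adjusted p = 0.014), lost when only the groups compared were fitted (adjusted p = 0.097). It also fell from 4 h to 24 h in CIS KO (-0.37 ± 0.12, adjusted p = 0.029), a call lost with library size alone (-0.27, adjusted p = 0.056). At 24 h it averaged 276 ± 20.9 CPM in TGFBRII KO cells (3 libraries) and 216 ± 21.7 CPM in WT cells (4 libraries), which differed by 0.36 ± 0.12 on the log2 scale (adjusted p = 0.024). At 4 h in TGFBRII KO it stood at 223, 222 and 223 CPM, below 273, 251 and 295 CPM in unstimulated TGFBRII KO cells (wholly lower, as for 17.9% of 10098 tested genes), a log2 difference of -0.30 ± 0.13, given without a test. CIS KO replicate 2 at 24 h, the deepest library of the series with 1403005 counts, held the lowest Cd247 and Lcp2 values of that group. Without it the falls at 24 h from unstimulated cells were -0.29 for Cd247 (adjusted p = 0.13) and -0.26 for Lcp2 (adjusted p = 0.11), and the fall of Lcp2 from 4 h was -0.24 (adjusted p = 0.17). With library total as a covariate they were -0.33, -0.22 and -0.21, and none of the 3 passed the test. Calls were also lost without other single libraries, for Cd247 unstimulated replicates 2 or 4, for Lcp2 at 24 h unstimulated replicate 1, and for Lcp2 from 4 h to 24 h replicates 2, 3 or 4 at 4 h or replicate 1 at 24 h. The Lcp2 difference between TGFBRII KO and WT was lost without any of WT replicates 1 and 2 and TGFBRII KO replicates 1 and 3 at 24 h (0.31 to 0.33) and with DESeq2.

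Lck and Zap70, the 2 kinases, passed the test in none of the 14 comparisons in which the members were tested. Lck group means ran from 252 CPM in TGFBRII KO at 4 h to 299.7 CPM in WT at 4 h, and Zap70 group means from 194 CPM in unstimulated WT to 233 CPM in WT at 4 h. The 95% intervals of the log2 difference between TGFBRII KO and WT at 24 h were -0.32 to 0.23 for Lck and -0.30 to 0.22 for Zap70. For the 4 h response in WT they were -0.13 to 0.54 for Lck and -0.11 to 0.53 for Zap70.

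The spread of these kinases within groups went with library depth. Within groups, the count of Lck rose with the library total with a slope of 0.65 (log2 count per log2 total), that of Zap70 with 0.75 and that of Lcp2 with 0.81, against 1.18 for the median gene and 0.91, 0.96 and 0.93 for the median of genes of like count. The counts of all 3 therefore rose less than in proportion to the library total, on average within groups. Not every group showed this. In TGFBRII KO at 4 h, Zap70 was at 179 CPM in the library of 701095 counts and at 217 and 199 CPM in deeper ones. In CIS KO at 24 h, the deepest library had 175 CPM of Lck, against 259.8, 270.4 and 308 CPM in the other libraries of that group. Lck and Zap70 correlated over the 31 libraries with r = 0.76, and with r = 0.77 after group means were removed, and both values share this depth.

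**Figure D4:**
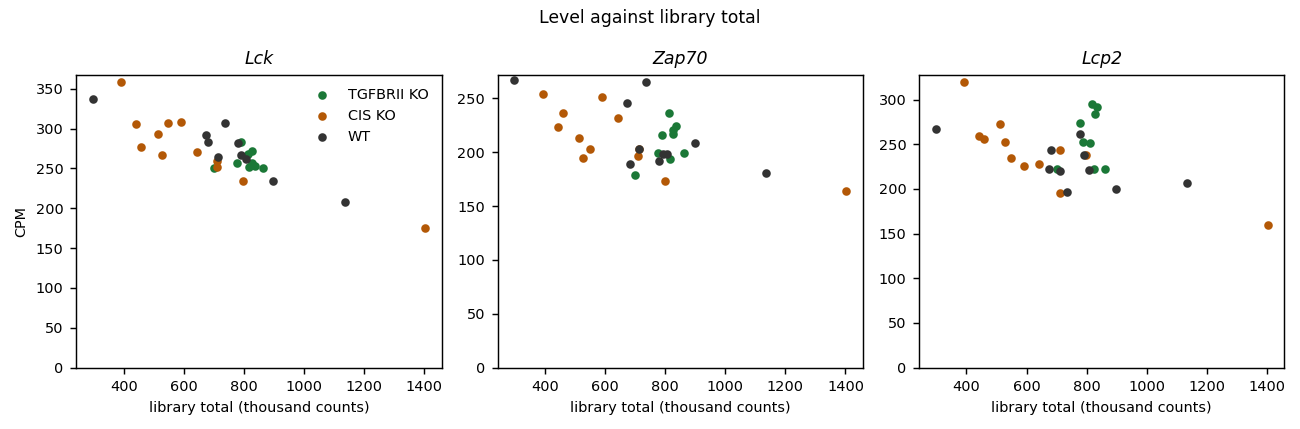
CPM of Lck, Zap70 and Lcp2 in each library (points, by genotype) against the library total. The library with the largest total, in CIS KO cells at 24 h, has the lowest Lck value, 175 CPM.

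Counted over the 9 genes, between 0 and 4 were called in each comparison. At 4 h, 2 were called in CIS KO, where 13.8% of all genes tested were called, and 2 in WT, where 11.8% were, each time Lat higher and Bcl11b lower. At 24 h, 0 changed in TGFBRII KO, where 0.0195% of all genes were called (1 of the 9 at an unadjusted p under 0.05, and 0 with DESeq2), and 3 in CIS KO, where 23.9% were. From 4 h to 24 h, 2 were called in TGFBRII KO (8.02% of all genes), 2 in CIS KO (15.3%) and 1 in WT (7.6%). The TGFBRII KO calls were Cd3d and Cd3g, chosen with their changes at 4 h known, which share the 4 h libraries. The WT call was Bcl11b, chosen with its change at 24 h known, which shares the 24 h libraries. The median log2 change of the 9 was -0.08 at 4 h in CIS KO (-0.02 for all genes), 0.05 at 4 h in WT (-0.02), 0.02 at 24 h in TGFBRII KO (0.00) and -0.24 at 24 h in CIS KO (0.02). Each count rests on a few genes of a list chosen with some results known, so no share over the list was set against that of all genes.

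Between TGFBRII KO and WT, 0 of the 9 were called in unstimulated cells (0.165% of all genes; 3 members at an unadjusted p under 0.05 and 0 with DESeq2). At 4 h, 2 were called (11.9%), and at 24 h, 4 were called (21.3%), Bcl11b, Cd247, Cd3d and Lcp2, all higher in TGFBRII KO. Bcl11b, called at both times, was chosen with its change at 4 h in TGFBRII KO known. Bcl11b and Cd3d were also chosen with their changes at 24 h in WT known. These changes share libraries with the counts given here. Between CIS KO and WT, 1 was called in unstimulated cells (6.13%), 0 were called at 4 h (0.273%; 0 members at an unadjusted p under 0.05 and 0 with DESeq2) and 0 at 24 h (3.38%; 2 and 0). The response at 4 h differed between CIS KO and WT for 0 members, where 0% of all genes were called (879 genes and 0 members at an unadjusted p under 0.05, and 0 genes with DESeq2).

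**Figure D5:**
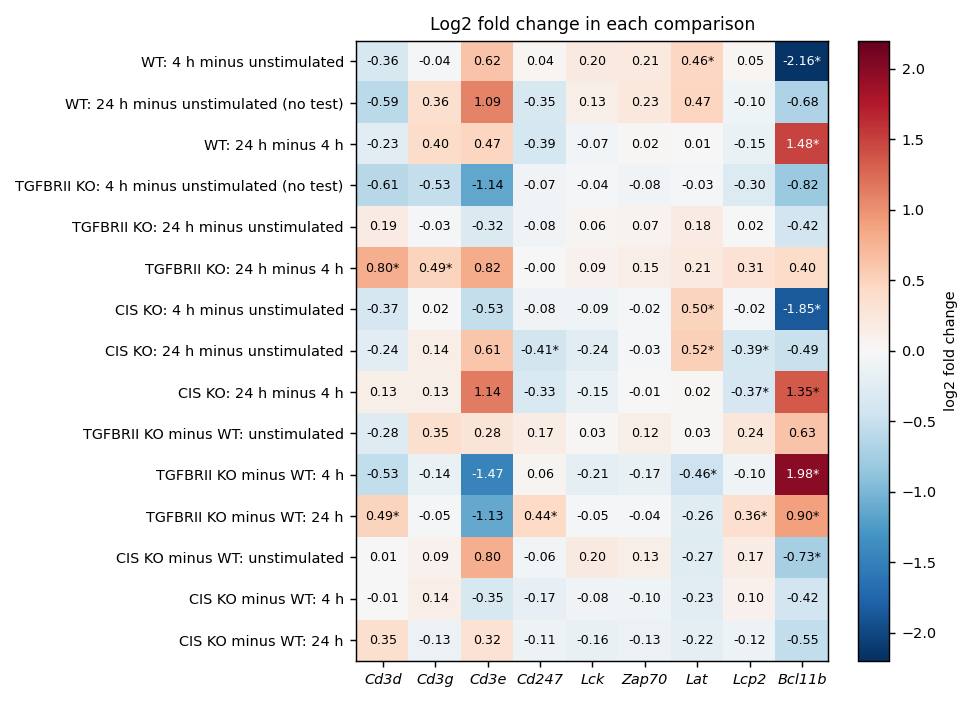
Log2 change of each of the 9 genes (columns) in each comparison (lines), by colour and value, with a star where the adjusted p was under 0.05 and 2 comparisons given without a test. Bcl11b carries the lowest value, -2.16, at 4 h in WT cells.

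Around these members, genes of the same pathway were read from 4 lists. These lists were also chosen with earlier results of these data known. Their shares are given beside those of all genes as a description, and the difference between the shares was not tested. Among 9 ITAM adaptors and receptor-proximal kinases, 0 rose and 1 fell at 4 h in CIS KO (11.1% of the list, against 13.8% of all genes; median log2 0.08, against -0.02), and 4 rose and 1 fell in WT (55.6%, against 11.8%; median 0.35, against -0.02). With library size alone as the scaling 1 rose and 1 fell in WT, and with library total as a covariate 0 rose and 1 fell. Hcst, the adaptor DAP10, rose in WT at 4 h by 0.68 ± 0.19 (edgeR, adjusted p = 0.013), as did the kinase gene Fyn by 0.36 ± 0.12 (adjusted p = 0.037). Ptprc, the phosphatase CD45, fell at 24 h in CIS KO (log2 -0.33 ± 0.10, adjusted p = 0.018).

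Of 21 tested proteins downstream of LAT and SLP-76, 2 rose and 1 fell at 4 h in CIS KO (14.3% of the list, near the 13.8% of all genes) and 2 rose and 2 fell in WT (19%, against 11.8%). Malt1, a protease of the NF-κB branch, rose at 4 h in TGFBRII KO by 0.88 ± 0.17 (edgeR, adjusted p = 0.00090) and in CIS KO by 0.63 ± 0.17 (adjusted p = 0.0076). In WT its difference of 0.48 ± 0.20 did not pass the test (adjusted p = 0.11). At 24 h, 1 of the 21 rose and 4 fell in CIS KO (23.8%, near the 23.9% of all genes). Among those that fell were Plcg2, a phospholipase C (-0.51 ± 0.12, adjusted p = 0.0025), and Sh2d2a, a T-cell adaptor (-0.54 ± 0.11, adjusted p = 0.00063).

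Inhibitors of receptor-proximal signalling went both ways. Of 14 tested, 5 rose and 3 fell at 4 h in CIS KO (57.1%, against 13.8% of all genes), and 4 rose and 3 fell in WT (50%, against 11.8%). Ptpn6, the phosphatase SHP-1, rose by 0.96 ± 0.12 in CIS KO (edgeR, adjusted p = 1.8e-07) and by 0.67 ± 0.14 in WT (adjusted p = 0.0010). Pag1, an adaptor that brings CSK to the membrane to restrain Src kinases, averaged 47.9 CPM at 4 h and 133 CPM unstimulated in CIS KO (log2 -1.45 ± 0.16, adjusted p = 2.2e-08), and 40.9 CPM at 4 h and 142 CPM unstimulated in WT (-1.68 ± 0.20, adjusted p = 2.0e-07). Dok2 fell in CIS KO (log2 -1.41 ± 0.12, adjusted p = 8.7e-11) and in WT (log2 -1.03 ± 0.15, adjusted p = 6.6e-06). Sla, the adaptor SLAP that lowers receptor levels, fell at 4 h in TGFBRII KO (-0.64 ± 0.13, adjusted p = 0.0020), in CIS KO (-0.99 ± 0.19, adjusted p = 0.00034) and in WT (-1.10 ± 0.19, adjusted p = 9.1e-05).

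Of 14 tested transcription factors of T and innate lymphoid development, 3 rose and 2 fell at 4 h in CIS KO (35.7%, against 13.8% of all genes), and 5 rose and 2 fell in WT (50%, against 11.8%). Runx3 rose by 0.68 ± 0.11 in CIS KO (edgeR, adjusted p = 4.8e-05) and by 0.81 ± 0.14 in WT (adjusted p = 7.4e-05), and Runx1 fell in CIS KO (log2 -0.90 ± 0.21, adjusted p = 0.0024) and in WT (log2 -0.76 ± 0.24, adjusted p = 0.031). Tox, which NK development needs, fell at 4 h in CIS KO (log2 -1.29 ± 0.33, adjusted p = 0.0066) and in WT (log2 -1.30 ± 0.31, adjusted p = 0.0044). Like Bcl11b, Tox was also lower in unstimulated CIS KO than in WT cells (-0.96 ± 0.22, adjusted p = 0.014). Ets1 rose at 4 h in WT by 0.45 ± 0.13 (adjusted p = 0.015) and fell at 24 h in CIS KO (log2 -0.55 ± 0.11, adjusted p = 0.00021).

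The genes whose log2 CPM was most like that of each member over the 31 libraries were found among all genes tested, as a description of libraries that share depth and condition. For Bcl11b they were Cd200r2 (r = 0.91), Rgs18 (0.89) and Tox (0.89). For Lck they were Rac2 (0.91), Il2rg (0.91) and Samm50 (0.90), and for Lat they were Itgb7 (0.83), Fes (0.82) and Inpp5k (0.81). The highest value was 0.84 for Cd247 (Arhgef3), 0.83 for Lcp2 (Itgal), 0.69 for Cd3g (Sppl3), 0.69 for Cd3e (Dsp) and 0.67 for Cd3d (Acat2).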

How the data were processed

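The authors deposited raw read counts per gene with Entrez identifiers for 31 libraries. Per the submitters' processing notes, FastQC, Trimmomatic, Subread, featureCounts, Picard and SAMtools were used on mm10; the sources used here give no versions, options or strand setting. Per the labels' protocols, a directional kit was used on total RNA. Symbols and coordinates came from RefSeq GRCm38.p6 (25275 of 27179 identifiers; the other 1904 held 0.958% of counts), promoter sequences from the RefSeq table of that build, and exon lengths from GENCODE M21.

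The test was run in edgeR 4.0.16 (R 4.3.3). filterByExpr over the 9 groups left 10275 genes, library sizes were scaled with TMM, and all libraries were fitted together. Quasi-likelihood F-tests were adjusted by Benjamini-Hochberg over all genes tested, and calls are at an adjusted p under 0.05. Standard errors are the log2 change over the root of F. The fit was also run on counts simulated from its own model, which checks the code and not how well the model suits these data. Alternatives were RLE factors, library size alone, no filter, DESeq2 1.42.0, a replicate block, only the groups compared, and each library left out. Library total as a covariate was added after seeing the data.

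The members and lists were chosen with earlier results of these data known. All 9 members are named, up to 4 genes per list with the smallest p, and the 3 genes most like each member by Pearson correlation of log2 CPM. Some genes that this rule names are not reported here. Total counts ran from 297561 to 1403005 per library (median 736193), which leaves Cd3e and the lowest Bcl11b values with wide counting error. The labels call the libraries biological replicates without saying whether they came from separate animals or cultures, so p-values measure only the spread between these libraries.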

Additional observations from a re-analysis of the deposited data

Results flagged for a closer look

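Of 45 groups of 4 libraries examined over the 9 genes, 3 held a library far from the rest by Dixon's test (critical value 0.829), and chance gives about 1 in 20. Cd3g was at 175 CPM in unstimulated CIS KO replicate 3, above 123 to 131 CPM in the other libraries of that group. Lat was at 169 CPM in CIS KO replicate 4 at 24 h, above 103 to 112 CPM in the others. Zap70 was at 254 CPM in unstimulated CIS KO replicate 1, above 194 to 203 CPM in the others, and this replicate also had the highest Lck (359 CPM) and Lcp2 (320.0 CPM) of its group.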

How the results depend on the processing

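The falls of Bcl11b at 4 h in CIS KO (-2.36 to -1.62) and WT (-2.30 to -1.81), the rises of Lat in CIS KO at 4 h (0.45 to 0.58) and 24 h (0.37 to 0.62), the return of Bcl11b from 4 h to 24 h in CIS KO (1.14 to 1.89) and the 24 h differences of TGFBRII KO from WT in Bcl11b (0.84 to 0.95) and Cd247 (0.38 to 0.47) stayed called under all alternatives run. The ranges cover only the fits with one library left out. The Bcl11b difference at 24 h shares its WT libraries with a change known at the choice of genes. No called value changed sign. Of all member values, called or not, 1197 came from other settings and 1431 from fits with one library left out. Among them 43 and 96 values not called changed sign.

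Of the 9 members, 1 in place of 2 was called at 4 h in WT and in TGFBRII KO against WT at 4 h with library size alone, no filter, DESeq2, the replicate block, library total as a covariate or only the groups compared. With DESeq2, 1 in place of 2 was called in TGFBRII KO from 4 h to 24 h, 2 in place of 3 in CIS KO at 24 h, where Cd247 was lost, and 2 in place of 4 in TGFBRII KO against WT at 24 h. With library total as a covariate, or only the groups compared, 1 in place of 3 was called in CIS KO at 24 h, 1 in place of 2 in CIS KO from 4 h to 24 h, and 1 in place of 0 in unstimulated TGFBRII KO against WT, as with no filter. The covariate and the smaller fit also gave 3 in place of 2 in TGFBRII KO from 4 h to 24 h, where Lcp2 was gained (0.32 and 0.30, edgeR adjusted p = 0.0078 and 0.021), and no filter 4 in place of 3 in CIS KO at 24 h, where Bcl11b was gained. Only the groups compared gave 1 in place of 0 in TGFBRII KO at 24 h, the covariate 0 in place of 1 in unstimulated CIS KO against WT, and no filter 1 in place of 0 in CIS KO against WT at 24 h. Beyond the filter and the smaller fits, which change the genes or libraries used, the cause was not tested.

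With one library left out, the calls ran from 1 to 2 for WT at 4 h, from 1 to 3 for CIS KO at 24 h and from 4 h to 24 h, from 0 to 2 for TGFBRII KO from 4 h to 24 h, from 0 to 1 for WT from 4 h to 24 h, from 2 to 4 for TGFBRII KO against WT at 24 h, and from 0 to 1 for TGFBRII KO against WT at 4 h and for CIS KO against WT unstimulated and at 24 h. Where a group was left with 1 library, that library was assumed to vary like the other groups.

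Whether replicate numbers pair the libraries was not settled by the check made, for which no chance level was computed. Deviations of libraries of the same genotype and number correlated from -0.39 to 0.25 over 29 pairs (median 0.03), 7 of them over 0.1. For the same genotype and unlike numbers they ran from -0.29 to 0.36 over 78 pairs (median -0.001), 12 of them over 0.1. Of 31 libraries, 12 matched their own number best. The replicate block gave 1 call at 4 h in WT and 1 in TGFBRII KO against WT at 4 h, as above. With library size alone the median of all genes moved to -0.11 at 4 h in WT and in unstimulated CIS KO against WT, to 0.12 in CIS KO from 4 h to 24 h and in the CIS KO and WT response difference at 24 h. Depth limits Cd3e (1 to 30 counts per library) and Bcl11b in CIS KO at 4 h (3 to 24 counts).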
